A study of Mus musculus with 2 samples.

Results

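SMAD proteins carry the signal of TGF-beta and related ligands from the cell surface to the nucleus, and 10 genes of this route were followed here in B cells of miR-155 knockout and wild-type mice. They were the receptor-activated SMADs Smad1, Smad2, Smad3 and Smad5, the common partner Smad4, the inhibitory Smad7, the receptors Tgfbr1 and Tgfbr2, and the corepressors Ski and Skil. Every probe set whose platform annotation names only one of these genes was taken, which gave 26 probe sets for 10 of the 18193 genes on the array. Each gene had 2 or 3 probe sets, and 0 probe sets named a member together with another gene.

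Ligand binding brings the type II receptor TGFBR2 together with the type I receptor TGFBR1, which phosphorylates SMAD2 and SMAD3, whereas BMP receptors act on SMAD1 and SMAD5. The phosphorylated proteins join SMAD4 and enter the nucleus, where SKI and SKIL (SnoN) hold their target genes down, and SMAD7 shuts the receptors off. In B cells this pathway is known for restraining proliferation and for directing class switching to IgA.

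The series has 2 arrays, 1 with the genotype mir155 KO and 1 with the genotype mir155 WT, from male mice on a C57 background from the Jackson Laboratory. The series' design calls the material cultured and activated B cells without naming the activating agent, while the growth protocol describes haematopoietic progenitors kept for 6 days with G-CSF and SCF. Cycloheximide, which blocks translation elongation, was added to both cultures at 100 ug/ml for 8 min before harvest. The labels do not say how many animals stand behind each array or how the miR-155 locus was altered.

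The 2 genotype labels cannot be taken as settled. Titles and genotype entries give the assignment used here, and the source names give the reverse. Mir155hg, the host transcript of miR-155, was read by 1 probe set at 10.88 (labelled knockout) and 6.63 (labelled wild-type), which goes against the labels. Whether its probes fall inside the altered stretch of the locus was not determined. If the source names are right, the sign of each difference given here turns over.

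The microRNA altered in this study is shown because Smad1, Smad2, Smad5 and Ski have each been reported as its targets in other cells. It lies on the plus strand of mouse chromosome 16 (GRCm38.p6, RefSeq), with the 5p strand at chr16:84714143-84714165. Its seed, bases 2 to 8, is in capitals, and it was the only one of 1738 mature mouse miRNAs in the table with that seed.
miR-155-5p: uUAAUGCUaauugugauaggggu
A transcript site that pairs with this seed would read AGCATTA, but the transcripts of the members were not searched here.

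Values are log2 intensities, and each difference subtracts the level labelled wild-type from the level labelled knockout. A probe set was kept where its mean over both arrays reached 6.71, the median over every probe set but the controls. Of the 26 member probe sets 22 passed, and each of the 10 genes kept at least 1. With 1 array per label there is no replicate spread, so no difference was tested and sizes alone are given. Readings of the same gene show how far probe sets disagree. Between the 2 brightest kept probe sets of a gene the difference varied by 0.084 in the median gene of 4906. For 95% of these genes it stayed within 0.31. Both readings come from the same 2 arrays, so this gap holds no variation between arrays or cultures.

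The members were close on both arrays, with the corepressor genes Ski and Skil somewhat lower under the knockout label. None of the 22 kept member probe sets differed by 0.5 or more, whereas 1.93% of all 19171 kept probe sets with a single gene did. At such a background share a count of 0 among 22 is not a result about the members. Their differences ran from -0.46 to 0.16 with a median of 0.01, beside a median of 0.03 over all kept probe sets. Of the 22, 12 were higher, 9 lower and 1 equal, and 13 (59.1%) lay within 0.1 of 0, against 47.3% of all kept probe sets.

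**Figure D1:**
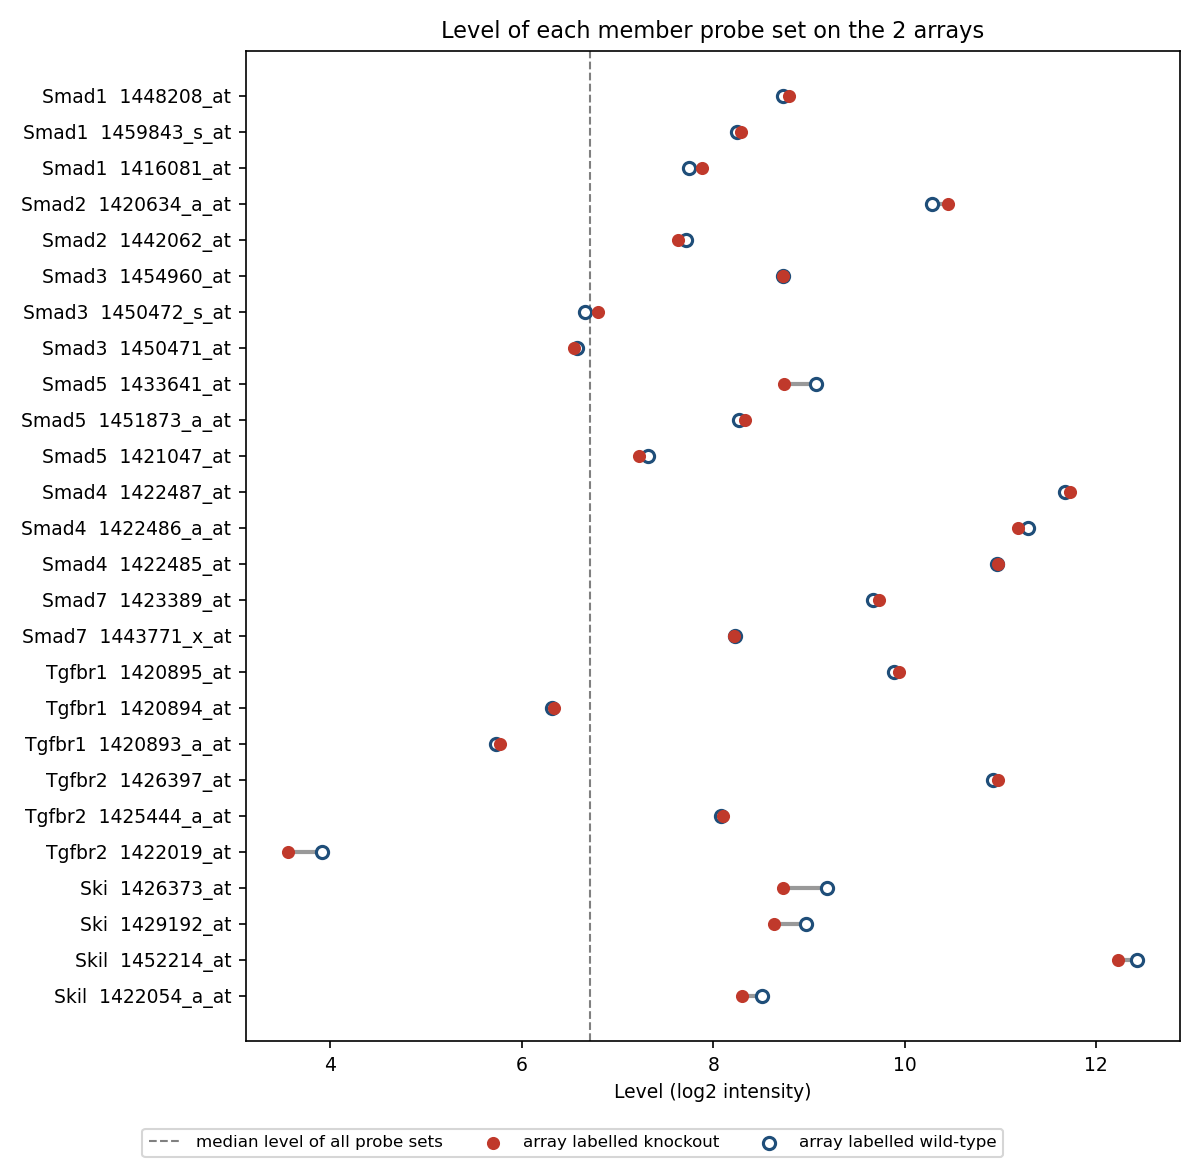
Level of each of the 26 member probe sets in log2 intensity on the array labelled knockout (filled) and the array labelled wild-type (open), with a dashed line at 6.71, the median of all probe sets. The points nearly coincide for most probe sets, and the widest gap among kept ones is that of a Ski probe set, at 8.73 and 9.19.

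Ski and Skil were both lower on the array labelled knockout, with each of their probe sets. Ski encodes a corepressor that binds SMAD2, SMAD3 and SMAD4 on DNA and recruits histone deacetylases. Its probe set 1426373_at read 8.73 under the knockout label and 9.19 under the wild-type label, a difference of -0.46 (1.38-fold). The second Ski probe set, 1429192_at, read 8.64 and 8.97, a difference of -0.33 (1.26-fold). The array labelled knockout was thus the lower one with both readings. These differences lay at percentiles 1.5 and 3.4 of all kept probe sets, whose central 95% ran from -0.38 to 0.39.

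Skil encodes SnoN, a close relative of SKI, and is itself induced by SMAD signalling. Its probe set 1452214_at read 12.23 and 12.43, and 1422054_a_at read 8.30 and 8.51, on the arrays labelled knockout and wild-type. The differences of -0.20 and -0.21 were nearly equal, and each was about 1.15-fold or 1.16-fold. They lay at percentiles 8.7 and 8.0. Among genes with several kept probe sets, 2 of 9 members, Ski and Skil, had all of them lower by 0.2 or more, and 3.42% of 4906 such genes did. That size was chosen after the values were seen, so the count describes the pair and supports nothing further. When both arrays were quantile normalized, Ski 1426373_at passed 0.5, at -0.51, and with a loess curve subtracted it stood at -0.52.

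**Figure D2:**
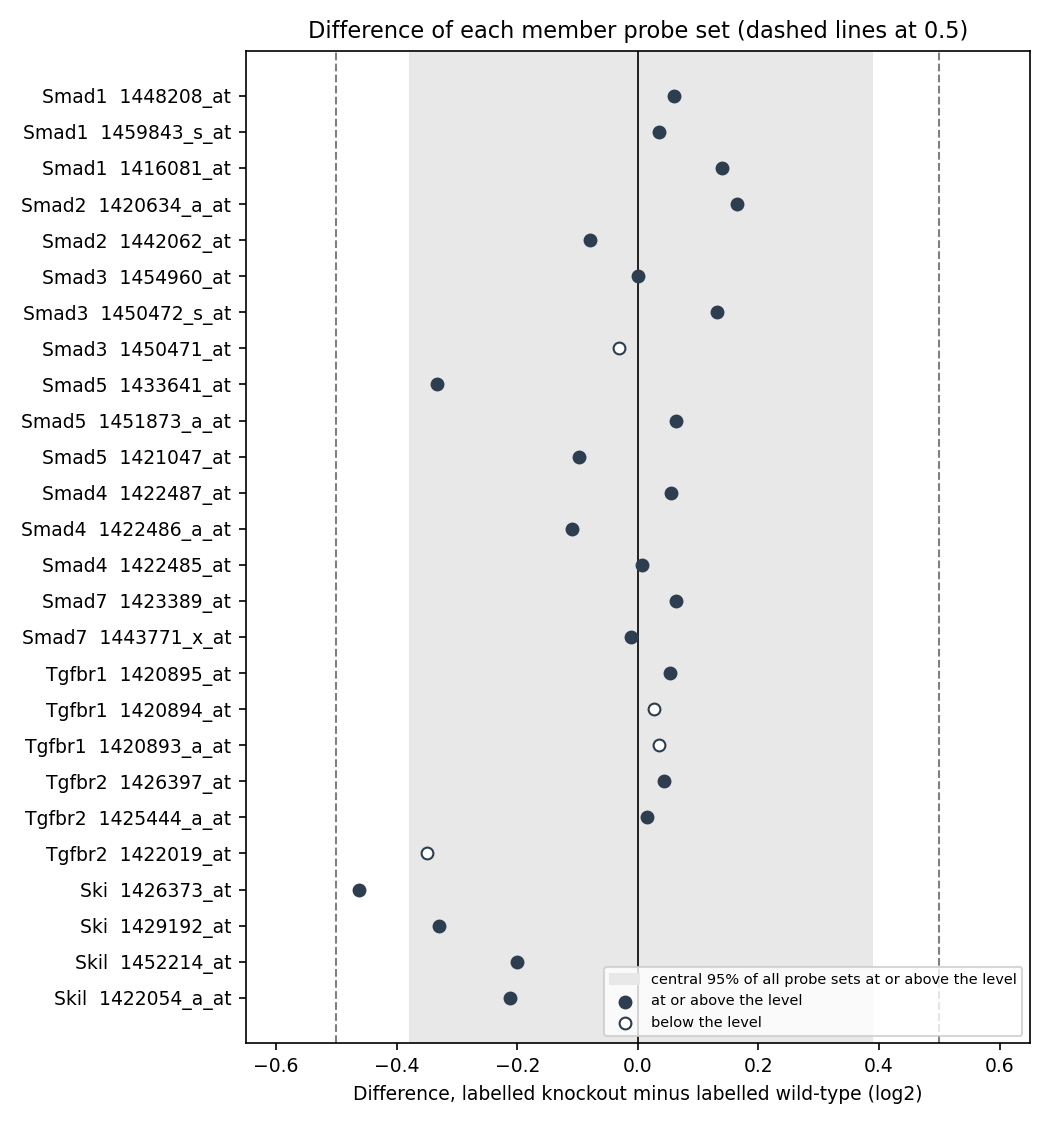
Difference of each member probe set, labelled knockout minus labelled wild-type, on the log2 scale, with kept probe sets filled and those below the level open. The grey band is the central 95% of all kept probe sets (-0.38 to 0.39) and dashed lines mark 0.5. One Ski probe set at -0.46 lies outside the band, and all 4 points of Ski and Skil are left of 0.

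Among the SMADs that BMP receptors activate, all Smad1 readings were slightly above 0 and Smad5 depended on the probe set. Smad1 read 8.79 and 8.73 (1448208_at), 8.29 and 8.25 (1459843_s_at), and 7.88 and 7.74 (1416081_at) on the arrays labelled knockout and wild-type. All 3 differences were above 0, at 0.06, 0.03 and 0.14, and none exceeded the disagreement of 0.31 seen between probe sets of one gene. They lay at percentiles 57.1, 50.2 and 75.5 of all kept probe sets, whose median was itself 0.03. With quantile normalization the middle one turned to -0.02 and the first fell to 0.003. With a loess curve subtracted they stood at -0.01 and 0.005.

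Smad5, a close relative of Smad1, gave readings that did not go together. Probe set 1433641_at read 8.74 and 9.07, a difference of -0.33 at percentile 3.4. Probe set 1451873_a_at read 8.33 and 8.27 (0.06), and 1421047_at read 7.22 and 7.32 (-0.10). The 2 brightest disagreed by 0.40, more than in 97.7% of the 4906 genes. Of the 3 readings 2 were lower under the knockout label, but the size of -0.33 rests on 1 probe set, and which transcript forms each one detects was not determined.

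The SMADs that TGF-beta and activin receptors activate lay near 0. Smad2 read 10.45 and 10.29 with 1420634_a_at, a difference of 0.16, the highest of the kept member readings. Its other probe set, 1442062_at, read 7.63 and 7.71, a difference of -0.08, so the 2 readings pointed in opposite directions. Smad3 read 8.73 on both arrays with 1454960_at. The deposited values of that probe set were identical, as they were for 1143 probe sets other than controls. A second Smad3 probe set, 1450472_s_at, read 6.79 and 6.66 (0.13) and reached the level of 6.71 on the array labelled knockout alone. The dimmest, 1450471_at, was below it on both arrays at 6.54 and 6.57.

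Smad4, the partner shared by both branches, was even on the 2 arrays. Its probe sets read 11.73 and 11.67 (1422487_at), 11.18 and 11.29 (1422486_a_at), and 10.97 and 10.96 (1422485_at). The differences were 0.06, -0.11 and 0.01, on both sides of 0, and the last turned to -0.03 with a loess curve subtracted. Smad7, which blocks the activated receptor and is induced by the signal it ends, read 9.73 and 9.67 with 1423389_at (0.06). With 1443771_x_at it read 8.21 and 8.22 (-0.01).

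The receptors were as even as Smad4. Tgfbr1, the kinase that phosphorylates SMAD2 and SMAD3, read 9.94 and 9.89 with 1420895_at, a difference of 0.05. Its probe sets 1420894_at (6.34 and 6.31) and 1420893_a_at (5.77 and 5.73) were below the level on both arrays. Tgfbr2, which binds the ligand, read 10.97 and 10.93 with 1426397_at (0.04), and 8.10 and 8.08 with 1425444_a_at (0.02). The sign of the latter turned to -0.03 with either rescaling. The dimmest Tgfbr2 probe set, 1422019_at, differed by -0.35, but at 3.56 and 3.91 it was far below the level for keeping a probe set.

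**Figure D3:**
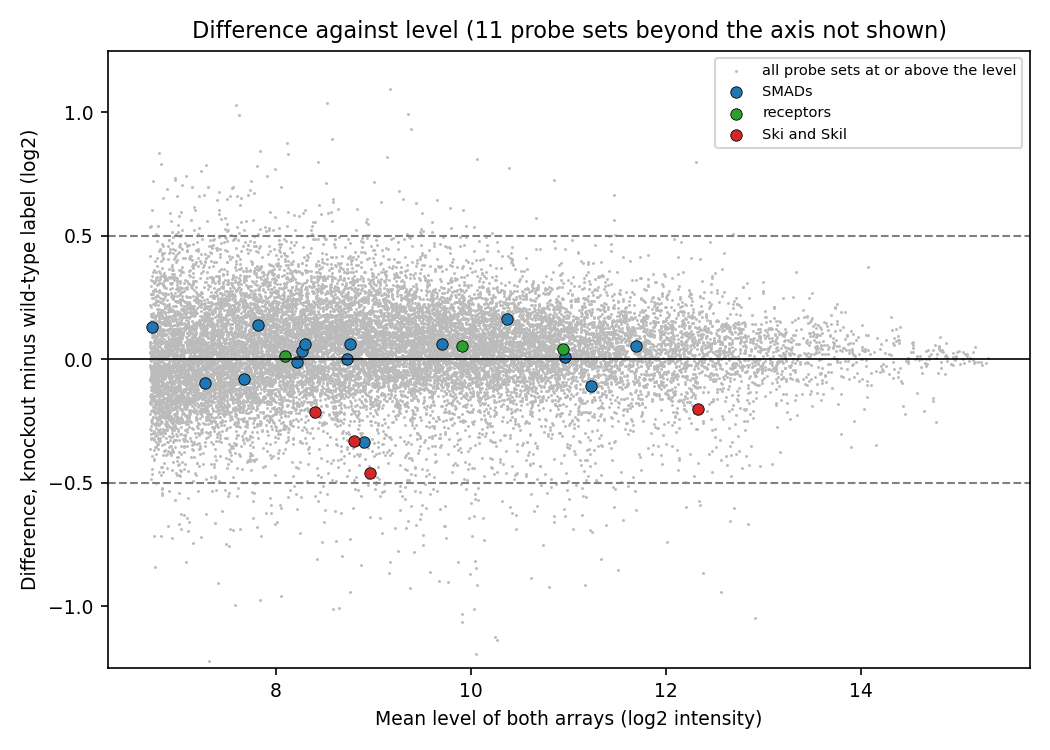
Difference (labelled knockout minus labelled wild-type, log2) against mean level (log2 intensity) for all 19171 kept probe sets in grey, with the SMADs, receptors and corepressors in colour and dashed lines at 0.5. The receptors and most SMAD points sit within the bulk near 0, while Ski and Skil (-0.20 to -0.46) and 1 Smad5 probe set (-0.33) lie in its lower part, and 11 probe sets beyond the axis are not drawn.

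By size, 3 of 22 kept member probe sets were lower by 0.3 or more, both of Ski and 1 of Smad5, and 0 were higher by as much. Over the whole array 4.16% of kept probe sets were lower by 0.3 or more and 5.74% higher. This size too was chosen after the values were seen. Of the 9 members with several kept probe sets, 4 had readings on both sides of 0 (Smad2, Smad4, Smad5 and Smad7), a share to be set beside 37.6% of all such genes. Taking for each gene its brightest probe set, 6 members were higher, 3 lower (Smad5, Ski and Skil) and 1 equal, with a median of 0.05. Over all 10717 kept genes 56.9% were higher and the median was 0.03.

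Around the members, 87 further genes of the pathway were listed by role, and 83 were measured. Of these 58 passed the level, 21 higher, 36 lower and 1 equal on the array labelled knockout. Only Cdkn2b and Cdkn1a differed by 0.5 or more, both lower, which is 3.45% of the 58 where 1.31% of all 10717 kept genes were lower and 0.681% higher by as much. The median of the 58 was -0.04, beside 0.03 for all kept genes, and 62.1% of them were lower, beside 42.1%. When all probe sets of a gene were averaged, those below the level included, 25 of 49 (51.0%) were lower and the median was -0.01. In that setting 40.4% of all kept genes were lower and their median was 0.03. With a loess curve subtracted, 65.5% of the 58 were lower, beside 52.6% of all kept genes.

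Both differences of 0.5 or more were in genes that SMAD complexes are known to switch on and that halt the cell cycle. Cdkn2b encodes p15, an inhibitor of CDK4 and CDK6, and read 8.29 under the knockout label and 9.23 under the wild-type label. The difference of -0.94 (1.92-fold) comes from its single probe set. Cdkn1a encodes p21, which p53 also induces, and read 11.91 and 12.51 with its brighter probe set and 10.88 and 11.57 with the other. Its differences of -0.60 and -0.69 went the same way.

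Of all 15 SMAD target genes measured, Cdkn2b and Cdkn1a included, 12 passed the level, 8 lower, 3 higher and 1 equal. Their median was -0.15, beside 0.03 over all kept genes, of which 42.1% were lower. The next lowest of the list was Id2, an inhibitor of E proteins, at -0.35 with its brightest of 3 probe sets and down to -0.60 with another. The highest were Myc (0.17), which TGF-beta is known to repress rather than induce, and Klf10 (0.16), an early TGF-beta response gene. Tgfbi (-0.83) lay below the level on both arrays, at 4.87 and 5.70, and none of its 4 probe sets passed.

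Kept ligand genes stood within 0.2 of 0. Of 12 measured, 5 passed the level, 4 lower and 1 higher, where 42.1% of all kept genes were lower. Tgfb1, the main TGF-beta isoform of lymphocytes, read 10.28 and 10.21, a difference of 0.08, and its second probe set gave 0.00. Gdf11 was next (-0.03), and Inhbb (-0.17) and Inhba (-0.10), the activin subunits, were lowest. Tgfb2, Tgfb3, Bmp2, Bmp4 and Bmp6 were below the level on both arrays, and the difference of -0.59 for Bmp4 was between levels of 4.39 and 4.98.

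Of 10 measured genes that store or release latent TGF-beta, 4 passed. Furin, the protease that cleaves the TGF-beta precursor, was lowest at -0.29, with levels of 8.96 and 9.25. Nrros followed at -0.09, while the latent TGF-beta binding protein gene Ltbp4 (0.14) and the integrin gene Itgav (-0.04) were highest. Among 12 other receptors and decoys 6 passed, 5 of them lower, with a median of -0.11, where 42.1% of all kept genes were lower. The activin receptors Acvr2b (-0.15) and Acvr2a (-0.13) were lowest, and Acvr1 (0.04) and Acvr1b (-0.02) highest. The differences of the kept genes in both lists stayed under 0.31, the 95th percentile of the gap between 2 probe sets of a gene. The median of that gap was 0.084, and Furin lay at percentile 4.8 of all kept genes.

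Anchors, ubiquitin ligases and phosphatases that act on receptors and SMADs were split, 9 higher and 8 lower of 17, with a median of 0.00. The endosomal protein gene Zfyve16 (0.33, levels of 7.72 and 7.39) and the ligase gene Wwp1 (0.23) were highest. The ligase genes Smurf1 (-0.17) and Smurf2 (-0.08), whose products mark SMADs and receptors for degradation, were lowest. Nuclear cofactors were also split, 6 higher and 8 lower of 14, with a median of -0.03. Hdac1 (0.13), a deacetylase, and the corepressor gene Tgif2 (0.11) were highest. Foxh1 (-0.22) and Runx1 (-0.20), transcription factor genes, were lowest, and all 6 kept probe sets of Runx1 were lower, from -0.27 to -0.13. Those of Smurf2 and Kat2a were also all lower. The kept probe sets of Usp15 (0.07 to 0.42), Fkbp1a (0.10 to 0.31), Strap (0.11 to 0.37) and Wwp1 (0.06 to 0.25) were all higher. Of the SMADs outside the members, Smad6 and Smad9 were below the level on both arrays.

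**Figure D4:**
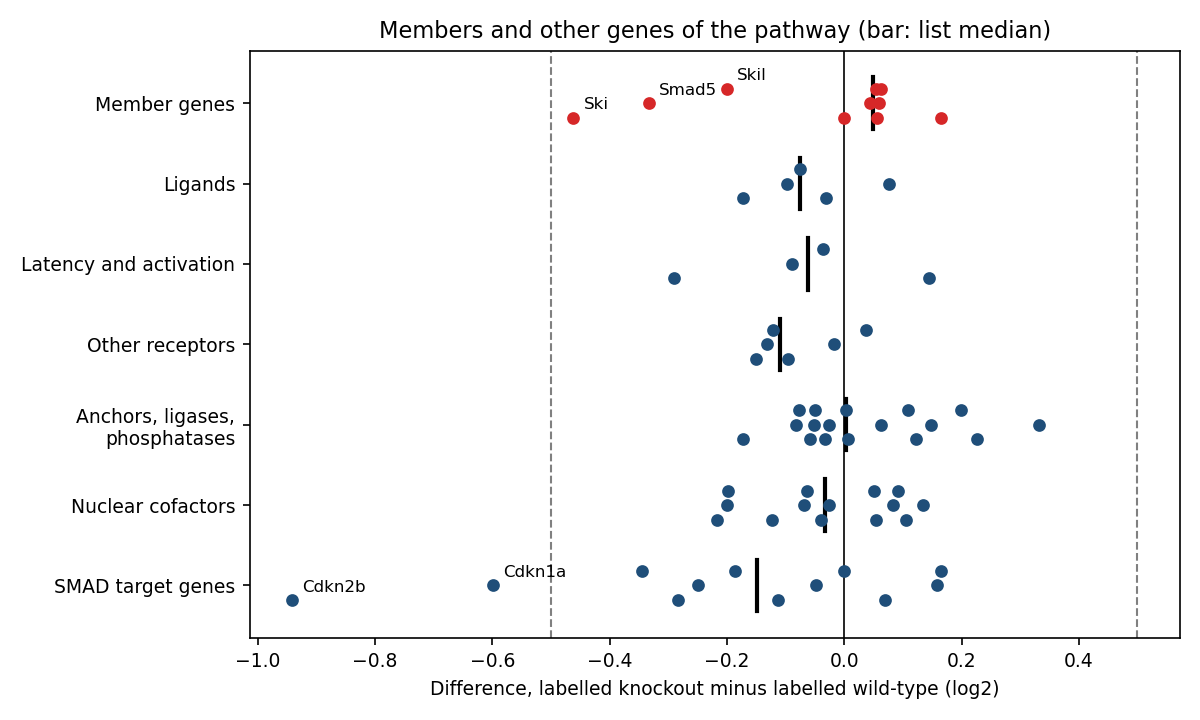
Difference (labelled knockout minus labelled wild-type, log2) of each gene, 1 point per gene from its brightest probe set, for the 10 members and for the kept genes of 6 other lists of the pathway, with bars at the list medians and dashed lines at 0.5. Cdkn2b (-0.94) and Cdkn1a (-0.60) are the only points beyond 0.5, and Ski (-0.46) is the lowest member.

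Markers of cell types did not stand level on the 2 arrays. Over all 10717 kept genes 56.9% were higher and 42.1% lower under the knockout label. All 11 measured B cell markers passed the level, among them Cd79a, Cd79b, Ms4a1 and Pax5. Of the 11, 10 were higher under the knockout label and Blnk was lower (-0.07). Their summed intensities were 63892 against 54806, a sum that leans on Fcer2a, the brightest, at 14.26 and 13.88 (0.37). Macrophage and monocyte markers (8 of 10 passed, 6 lower) summed to 1601 against 1850, and Mertk and Itgam were below the level. Tyrobp (-0.39, levels of 8.97 and 9.36) was their brightest, and Ccr2 (0.06) and Adgre1 (0.03) were higher. Dendritic cell markers (4 of 7 passed, 3 lower) summed to 5478 against 6658, with Itgax, Xcr1 and Siglech below the level. That sum leans on Bst2, the brightest, at 11.81 and 12.12 (-0.31). Zbtb46 (-0.44) and Flt3 (-0.27) were lower too, and Batf3 was higher (0.37). T cell markers (6 of 7 passed, 3 higher and 3 lower) summed to 1524 against 1455. Thy1 among them was higher by 0.56, at 7.92 and 7.36, and was the only kept marker of any list past 0.5. Cd3e (0.25) and Cd4 (0.04) were the others higher, and Cd3d (-0.12) was the lowest. Of 8 measured neutrophil markers 7 were below the level, and Camp alone passed, at 6.80 and 6.88. The part of these shifts in the lower Ski, Skil, Cdkn2b and Cdkn1a was not tested. In such bulk RNA, fewer cells of a type and less RNA per cell cannot be told apart.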

How the data were processed

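The deposited table holds log2 intensities of 45101 probe sets on 2 arrays. The unit was read from the values (3.09 to 15.4), and how the authors summarised and normalized them is not stated in the labels. The arrays' sorted values lay within 0.063 of each other, so a change in total RNA per cell would not be visible. Biotinylated cRNA came from Trizol-extracted RNA and an Affymetrix 3′ IVT kit, per the labels' protocols.

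Names came from the platform's annotation, checked by Entrez number against RefSeq GRCm38.p6. Of 45037 probe sets other than controls, 34945 had 1 gene (34741 matched, 0 symbols changed), 932 several and 9160 none. A gene took its probe set with the highest mean, and probe sets or genes with a mean under 6.71 were set aside.

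All members are named, with Mir155hg, each other pathway list's 2 highest and 2 lowest kept genes and any differing by 0.5 or more. Other genes named were chosen after their values were seen. Members and lists were chosen with earlier results of these data known. The lists of pathway genes and markers came from textbook knowledge. The difference calculation was tested on simulated data. Precision is limited by the number of arrays. Calculations ran in Python 3.11.15 with NumPy 2.4.6 and pandas 2.3.3, loess in statsmodels 0.14.6 and plots in matplotlib 3.10.9.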

Additional observations from a re-analysis of the deposited data

How the results depend on the processing

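Tried instead were averaged probe sets per gene, plain _at probe sets alone, quantile normalization, a loess curve subtracted (span 0.3), no filter on level, a filter at the 75th percentile, and a size of 2-fold in place of 0.5. Member probe sets past 0.5 numbered 0, and 1 (Ski 1426373_at) with quantile normalization and with the loess curve. Other pathway genes past 0.5 numbered 2, and 3 with plain _at probe sets (adding Id2 at -0.60), 4 with no filter (adding Bmp4 and Tgfbi), 1 with the filter at the 75th percentile (Cdkn1a, as Cdkn2b no longer passed) and 0 at 2-fold. Ski ranged from -0.52 to -0.40 and Skil from -0.23 to -0.20 over these settings, all below 0. Smad5 ranged from -0.39 to -0.12, also below 0, but each value except the averaged one was read from its brightest probe set. The constant sign therefore does not settle the disagreement between its probe sets. Its probe set 1451873_a_at stayed above 0, at 0.06, 0.009 with quantile normalization and 0.014 with the loess curve. Its dimmest probe set stayed below 0, at -0.10 in each case. Smad2 (-0.08 to 0.16), Smad3, Smad4 and Tgfbr2 took both signs. Averaging took in probe sets below the level, and the averaged Tgfbr2 value of -0.10 includes its dimmest probe set (-0.35). The kept probe sets of Tgfbr2 averaged 0.03. All 58 alternative values of single members moved by less than 0.31, the 95th percentile of the gap between 2 probe sets of a gene. Many of the 58 could not move, because the same brightest probe set was read. That held with no filter, with the filter at the 75th percentile, and with plain _at probe sets for every member but Smad2. Only averaging and the 2 rescalings could move the others. The medians of members and of other pathway genes moved by less than 0.084, the median of that gap. No array could be left out, as each label has 1. No paired analysis was possible because each label has 1 array and the labels give no replicate numbers. The planned search for seed matches in transcripts was not run, as no transcript sequence was used here.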
